A study of Mus musculus with 2 samples.

Results

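T cells were taken from single-cell profiles of the whole vomeronasal organ (VNO), the chemosensory organ of the nasal septum that detects pheromones. A barcode was counted as a T cell when it held at least 2 molecules (unique molecular identifiers, UMIs) of *Cd3d*, *Cd3e* and *Cd3g* together, at most 2 UMIs of the complement genes *C1qa*, *C1qb* and *C1qc*, no UMI of the B cell gene *Cd79a* and under 5 UMIs of the neuronal gene *Omp*. Of 10591 barcodes with 200 to 9000 genes and at most 5% mitochondrial UMIs, 272 met this rule, which is 2.57% (95% exact binomial interval 2.28 to 2.89). The T cells made up 2.65% of the barcodes in library 1 (151 of 5694) and 2.47% in library 2 (121 of 4897). The intervals given with shares cover counting error only.

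The VNOs came from male C57BL/6J wild-type mice at postnatal day 60, 5 mice in total, and no treatment or other genotype was included. The tissue was dissociated with papain and collagenase, frozen as a cell suspension, and run as 2 samples, each giving 1 droplet-based 3′ library. Both samples form 1 group, so each comparison was made between kinds of T cells, or between T cells and other lymphocytes, of the same libraries. The sources used here do not say which mice went into which sample, and p-values measure only the spread between these 2 samples, which may be technical. The libraries held 108005626 and 95442231 UMIs over 12814 and 11270 deposited barcodes, and 33 barcode sequences were found in both libraries, none of them in a T cell. A T cell held a median of 3103.5 UMIs (3267 in library 1 and 2964 in library 2, range 824 to 22474) and 1300.5 genes. VSNs, the vomeronasal sensory neurons, were used to gauge the free RNA that enters every droplet. Their 941 barcodes, with at least 5 UMIs of *Omp* and none of the *Cd3* genes, had a median of 15618 UMIs and were therefore deeper than the T cells.

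T cells recognise antigen with a receptor of either an alpha and a beta chain or a gamma and a delta chain, and either pair is held at the surface by the CD3 proteins. Alpha-beta T cells mostly carry CD4 or CD8 and circulate through lymph nodes before they enter tissue. Gamma-delta T cells mostly carry neither co-receptor, and certain subsets settle in barrier tissues early in life and secrete interleukin 17, a cytokine that recruits neutrophils and acts on epithelium.

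The label was checked with the markers *Cd3d*, *Cd3e*, *Cd3g*, *Trac* and *Trbc2*, of which the first 3 chose the cells and are no check. *Trbc2*, a constant region of the receptor beta chain, was found in 242 of the 272 cells (89.0%) against 0.319% of VSNs. *Trac*, the constant region of the alpha chain, was found in 99 cells (36.4%) against 2.66% of VSNs. *Cd247*, the zeta chain of the CD3 complex, was found in 143 cells (52.6%), although 9.88% of the deeper VSNs also held a UMI. The cells thus carried T cell receptor transcripts, but a minority held the alpha chain.

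The delta chain was common. *Trdc*, its constant region (chr14:54142851-54148868, + strand, mm10), was found in 174 T cells (64.0%) against 0.319% of VSNs, at shares of 67.5% and 59.5% in the libraries. Its level over the summed T cells, in counts per 1000000 UMIs (CPM), was 1574 in library 1 and 1270 in library 2, against 0.736 and 1.31 in all other barcodes. The 272 T cells held 94.4% of all *Trdc* UMIs that passed the filter.

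Among the gamma chains, *Tcrg-C1* was found in 161 T cells (59.2%), *Tcrg-C4* in 77 (28.3%) and *Tcrg-C2* in 50 (18.4%), and none of them was found in a VSN (0 of 941 cells, for which a count of 0 allows up to 0.319%). *Tcrg-C1* was more frequent in library 1 (64.9%) than in library 2 (52.1%), while *Tcrg-C2* was less frequent in library 1 (13.9%) than in library 2 (24.0%). *Tcrg-C1* with *Tcrg-C2*, and *Trbc1* with *Trbc2*, are close copies of each other, so the division of UMIs within each pair is uncertain. A UMI of any of these 3 gamma constant regions was held by 190 T cells (69.9%).

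The delta and alpha constant regions were mostly found in different cells. *Trdc* without *Trac* was seen in 147 T cells (54.0%), *Trac* without *Trdc* in 72 (26.5%), both in 27 (9.93%) and neither in 26 (9.56%). The beta chain did not follow this division. *Trbc2* was found in 128 of the 147 cells with *Trdc* alone (87.1%) and in 72 of the 72 with *Trac* alone. *Tcrg-C1* was found in 122 of the 147 (83.0%) but in 13 of the 72 (18.1%).

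**Figure D1:**
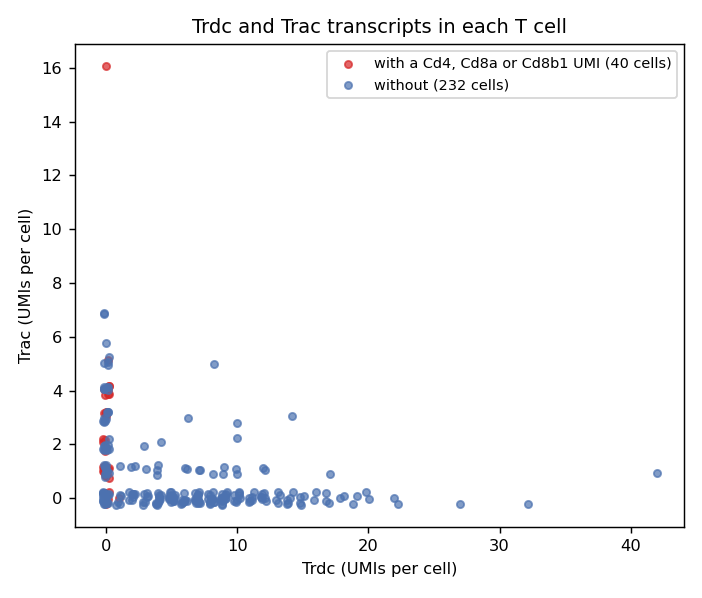
Each point is 1 of the 272 T cells, with UMIs of *Trdc* on the x axis and UMIs of *Trac* on the y axis (points are spread slightly so that they do not hide each other). Red points are the 40 cells with a UMI of *Cd4*, *Cd8a* or *Cd8b1* and blue points the 232 without; most points lie along one axis, and 27 cells hold both transcripts.

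*Trdv4* was the V segment found in the most T cells. A 3′ library reads few V segments, which lie at the far end of the transcript, and only 7 T cells held a UMI of any of 128 *Trav* segments in the matrix and 6 of any of 35 *Trbv* segments. *Trdv4*, which encodes the segment also called V delta 1, was in contrast found in 121 T cells (71 in library 1 and 50 in library 2) with 261 UMIs, while UMIs of any of the 6 *Trdv* segments were found in 122. Gamma V segments were found in 42 T cells. *Trgv2* was found in 25 and *Tcrg-V6* in 15, and *Tcrg-V1*, *Tcrg-V4* and *Tcrg-V5* were found in 4, 2 and 1.

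*Trdv4* and *Tcrg-V6* belong to the receptor of a gamma-delta subset that arises before birth and is known from mucosal and reproductive tissue. The last 90 bases of both segments are shown, because *Trdv4* was the V segment seen most and *Tcrg-V6* is the gamma segment with which it is known to pair. Whether both segments were found in the same cells was not examined. Where in these segments the UMIs fell is not recorded in the counts. They are from the GENCODE transcripts of GRCm38, 5′ to 3′, with the codon of the conserved cysteine that opens the CDR3 in capitals. The gene of *Trdv4* lies at chr14:54074905-54075515 (+ strand) and that of *Tcrg-V6* at chr13:19190356-19190929 (+ strand).
Trdv4: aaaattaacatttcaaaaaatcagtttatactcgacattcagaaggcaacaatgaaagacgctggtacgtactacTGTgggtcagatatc
Tcrg-V6: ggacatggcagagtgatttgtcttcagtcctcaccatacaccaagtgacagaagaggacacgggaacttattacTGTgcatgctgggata
Of the 121 cells with *Trdv4*, 119 were among the 173 cells that held *Trdc* and neither *Cd4* nor *Cd8b1*, called Trdc T cells from here on. Of the 15 cells with *Tcrg-V6*, 14 were Trdc T cells.

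**Figure D2:**
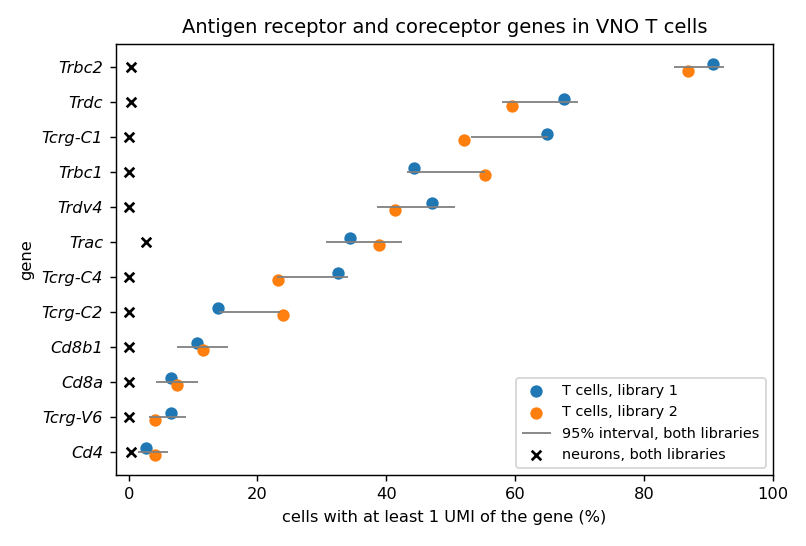
Share of T cells with at least 1 UMI of each receptor or co-receptor gene (x axis, percent), with a dot for each of the 2 libraries, a line for the pooled 95% exact binomial interval and a cross for the 941 VSNs. *Trbc2* lies at 89.0%, *Trdc* at 64.0% and *Tcrg-C1* at 59.2%, whereas *Cd8b1* lies at 11.0% and *Cd4* at 3.31%.

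The co-receptors were rare. *Cd4* without *Cd8a* or *Cd8b1* was found in 4 of 151 T cells in library 1 and 5 of 121 in library 2, which is 3.31% in all (interval 1.52 to 6.19), against 0.425% of VSNs. *Cd8a* or *Cd8b1* without *Cd4* was found in 17 and 14 cells, which is 11.4% (7.88 to 15.8) against 0.213% of VSNs. Both chains of CD8 were seen in 18 of these 31 cells, *Cd8b1* alone in 12 and *Cd8a* alone in 1. Neither co-receptor was seen in 232 cells (85.3%, interval 80.5 to 89.3), and at this depth a cell without a UMI may still carry the transcript.

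Trdc T cells, in contrast, were 101 of 151 in library 1 (66.9%) and 72 of 121 in library 2 (59.5%), 63.6% in all (57.6 to 69.3) against 0.319% of VSNs. When every cell was thinned to 2027 UMIs, which kept 244 T cells and 938 VSNs, the shares of T cells were 61.9% for *Trdc*, 10.7% for CD8 and 3.28% for CD4.

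The genes that set the T cells apart from all other barcodes were led by gamma-delta and interleukin 17 genes. Ranked by the ratio of CPM in both libraries, among genes seen in at least 20% of T cells, the 15 highest were *Trdc* (1448-fold), *Cd163l1* (1001), *Tcrg-C1* (938), *Il17a* (933), *Trdv4* (824), *Actn2* (773), *Blk* (573), *Tnfsf11* (460), *Trbc2* (447), *Lat* (438), *Icos* (346), *Cxcr6* (332), *Ly6g5b* (317), *Tcrg-C4* (272) and *Pdcd1* (258), leaving aside the *Cd3* genes. These ratios describe cells that were chosen by their transcripts and were not tested.

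*Il17a*, which encodes interleukin 17A, was found in 84 T cells (30.9%, interval 25.4 to 36.7), 44 in library 1 and 40 in library 2, against 0.213% of VSNs. The T cells held 91.6% of its UMIs, and 11 other barcodes held the rest. Its level was 676 CPM in library 1 and 1216 CPM in library 2, against 0.0841 and 2.00 CPM in other barcodes. The transcript was unevenly spread among the positive cells: the median was 3 UMIs and the highest value 127, 18 cells held a single UMI, 27 held 10 or more, and the 10 highest cells held 56.3% of the 930 UMIs.

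*Cd163l1* encodes a scavenger receptor (SCART1) of gamma-delta T cells and was found in 160 T cells (60.3% in library 1 and 57.0% in library 2), 158 of which were Trdc T cells. Its neighbour *5830411N06Rik*, which encodes the related SCART2, was found in 13 T cells (4.78%), 4 of them Trdc T cells. *Blk*, a Src-family kinase needed by T cells that make interleukin 17, was found in 106 cells (39.0%), and neither *Blk* nor *5830411N06Rik* was found in a VSN.

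Regulators of interleukin 17 were found at lower rates. *Il23r*, the receptor of interleukin 23, was found in 47 T cells (17.3%) and in no VSN. *Il1r1*, the receptor of interleukin 1, was found in 58 (21.3%), *Maf* in 117 (43.0%) and *Rora* in 170 (62.5%). *Ccr6*, a chemokine receptor of many interleukin 17 producing cells, was found in 7 (2.57%). The related cytokines *Il17f* and *Il22* were found in 5 and 10 T cells.

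Other cytokines were found at varied rates. Lymphotoxin beta (*Ltb*) was found in 221 T cells (81.2%), RANKL (*Tnfsf11*) in 102 (37.5%), *Tgfb1* in 89 (32.7%) and *Tnf* in 77 (28.3%). *Ifng*, the interferon of type 1 responses, was found in 23 (8.46%), of which 13 were among 39 T cells that held *Cd4*, *Cd8a* or *Cd8b1* and no *Trdc* (CD4 and CD8 T cells from here on) and 6 were Trdc T cells. *Areg*, the growth factor amphiregulin, was found in 15 (5.51%), *Il13* in 1, and *Il4*, *Il5*, *Il10* and *Il21* in none (0 of 272 cells, for which a count of 0 allows up to 1.10%).

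The promoters of the genes of the gamma-delta and type 17 list that were called higher in Trdc T cells than in CD4 and CD8 T cells were searched for AGGTCA or its reverse complement TGACCT, a core element bound by many nuclear receptors. Of 8 such genes, 4 had an entry in the RefSeq promoter table (GRCm38.p6), and of these *Il17a* held a match and *Cd163l1*, *Tmem176a* and *Tmem176b* held none in the 250 bases before the start. The match in *Il17a*, in capitals, begins 120 bases before the start. The sequences of *Il17a* (chr1:20730655-20730904, + strand) and *Cd163l1* (chr7:140218017-140218266, + strand) are shown because these genes have the highest ratios among the 4.
Il17a: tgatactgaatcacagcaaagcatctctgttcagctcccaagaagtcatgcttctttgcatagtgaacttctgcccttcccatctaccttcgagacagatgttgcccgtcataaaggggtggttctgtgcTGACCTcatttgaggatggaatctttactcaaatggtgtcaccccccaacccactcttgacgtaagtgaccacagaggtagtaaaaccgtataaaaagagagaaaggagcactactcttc
Cd163l1: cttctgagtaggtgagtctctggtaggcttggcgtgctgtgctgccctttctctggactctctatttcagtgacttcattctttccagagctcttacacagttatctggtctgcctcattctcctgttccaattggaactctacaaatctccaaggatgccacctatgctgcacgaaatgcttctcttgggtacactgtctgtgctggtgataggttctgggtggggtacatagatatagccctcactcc
A match was present in 14.0% of all 32851 promoters of the table over the same length, and such a match is a description of the letters only.

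Genes of tissue residency and of recirculation were found at very different rates within each list. *Cxcr6*, a chemokine receptor of resident T cells, was found in 82.8% of T cells of library 1 (125 of 151) and 86.8% of library 2 (105 of 121), 84.6% in all (79.7 to 88.6) against 0.106% of VSNs, and in 71.7% after thinning. *Cd69*, which holds cells in tissue by blocking the exit receptor S1PR1, was found in 223 (82.0%), *Icos* in 197 (72.4%) and *Il18r1* in 131 (48.2%). *Itgae*, the integrin of many T cells within epithelium, was found in 24 (8.82%), *Itga1*, the integrin chain CD49a, in 11 (4.04%), and *Zfp683*, a residency regulator of CD8 T cells, in 2.

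Of the recirculation genes, *Klf2*, a factor that maintains the expression of exit receptors, was found in 112 T cells (41.2%), against 37.5% of VSNs, and in 61 of the 173 Trdc T cells and 25 of the 39 CD4 and CD8 T cells. *Lef1*, a factor of naive T cells, was found in 40 (14.7%) against 1.06% of VSNs. *Ccr7*, a chemokine receptor that brings naive T cells into lymph nodes, was found in 11 T cells, 4.04% in all (2.04 to 7.12) and 5.30% and 2.48% in the libraries, against 0.213% of VSNs. It was found in 0 of the 173 Trdc T cells (a count of 0 allows up to 1.73%) and in 6 of the 39 CD4 and CD8 T cells (15.4%). The difference in summed UMIs missed the threshold (adjusted p = 0.0504 by edgeR, and 0.000163 with the libraries as a block). *Ccr7* reached the 10 UMIs needed for this test through the CD4 and CD8 T cells alone, so it could only come out lower. A block leaves less spread from which to estimate error, so p-values with the block are a description. *S1pr1*, the receptor for exit from tissue, was found in 23 T cells (8.46%) against 2.98% of VSNs. It was found in 3 of the 173 Trdc T cells (1.73%) and in 12 of the 39 CD4 and CD8 T cells (30.8%), with an adjusted p of 0.0551 by edgeR for the summed UMIs, and 0.0142 with the block.

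The CD4 T cells (4 and 5 in the libraries) were too few to be tested against the 31 CD8 T cells. *Cd40lg*, which lets helper T cells stimulate antigen-presenting cells, was found in 7 of the 9 CD4 cells and 4 of the 31 CD8 cells, and the costimulatory receptor *Tnfrsf4* in 5 and 1. *Ccl5*, a chemokine of effector CD8 T cells, reached 4302 CPM in the CD8 cells and 808 CPM in the CD4 cells. *Foxp3*, the factor of regulatory T cells, was found in 3 T cells (1.10%, interval 0.228 to 3.19) against 0.213% of VSNs. All 3 held *Ctla4* and *Trac*, and 2 held *Tnfrsf4*.

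Trdc T cells (101 and 72 cells, median 2910 UMIs) were compared with CD4 and CD8 T cells (20 and 19 cells, median 3786 UMIs). UMIs were summed per library and kind of cell and tested with edgeR's quasi-likelihood test over 6968 genes with at least 10 UMIs. With Benjamini-Hochberg adjustment, 25 genes were higher in Trdc T cells (0.359% of genes tested) and 39 lower (0.560%). When the libraries, from which both kinds of cell were taken, entered as a block, 164 genes passed, among them each of these 64. The genes that chose the cells (*Trdc*, *Cd4*, *Cd8a*, *Cd8b1* and the *Cd3* genes) were not tested.

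Of the 20 genes of the gamma-delta and type 17 list, 16 reached 10 UMIs and were tested, and 8 were higher in Trdc T cells and none lower. For 7 of the 16, all UMIs were in Trdc T cells, so they passed the filter on low counts through that group alone. *Cd163l1* gave 390 and 279 UMIs in Trdc T cells and none in CD4 and CD8 T cells, at least 67.6-fold higher per total UMIs with a floor of 3 UMIs over the group (adjusted p = 0.000345). *Tcrg-C1* gave 297 and 132 UMIs against none, at least 43.3-fold higher (adjusted p = 0.00107). *Tcrg-C4* gave 61 and 32 UMIs against none (at least 9.40-fold, adjusted p = 0.0116), a call that was lost where a positive cell needed at least 2 UMIs of its defining gene (0.0842). *Trdv4*, counted among the 8, is the V part of the same transcript as *Trdc*, so the choice of cells set its difference and its values (158 and 101 UMIs against 1 and 0) are a description.

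*Il17a* was at 870 and 2092 CPM in Trdc T cells and at 297 and 259 CPM in CD4 and CD8 T cells, a log2 difference of 2.32 ± 0.39 (SE, n = 2 libraries, adjusted p = 0.026 by edgeR). It was found in 72 of the 173 Trdc T cells (41.6%) and in 2 of the 39 others (5.13%), and those 2 cells, 1 in each library, held 29 and 23 UMIs. The call for *Il17a* was lost without doublets (adjusted p = 0.0778), with the stricter filter of edgeR (0.0537) and where a positive cell needed at least 2 UMIs of its defining gene (0.492). *Blk* gave 81 and 66 UMIs against 3 and 0, a ratio of 14.9 (counting interval 4.98 to 72.8, adjusted p = 0.0337), and this call was lost without doublets (0.0778) and with at least 2 UMIs (0.0617). *Tmem176b* was at 1598 and 1320 CPM against 266 and 180 CPM, a log2 difference of 2.64 ± 0.30 (adjusted p = 0.00359), and its neighbour *Tmem176a* differed by 2.42 ± 0.28 (lost with at least 2 UMIs, adjusted p = 0.0795). Both encode membrane proteins, and both were abundant outside T cells too: the CPM of all T cells was 1.22 times that of other barcodes for *Tmem176b* and 1.28 times for *Tmem176a*.

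Other receptor and type 17 genes did not pass. None of the 22 lineage factors tested was called. Of all genes tested, 0.359% were called higher and 0.560% lower, so no call among 22 is near the share over all genes. *Il23r* gave 48.4 and 112 CPM against 0 and 0 (adjusted p = 0.136, and 0.00555 with the block). *Trbc2* was at 1005 and 826 CPM against 1944 and 1767 CPM, a log2 difference of -1.08 ± 0.23 that missed the threshold (adjusted p = 0.0909, and 0.0161 with the block).

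**Figure D3:**
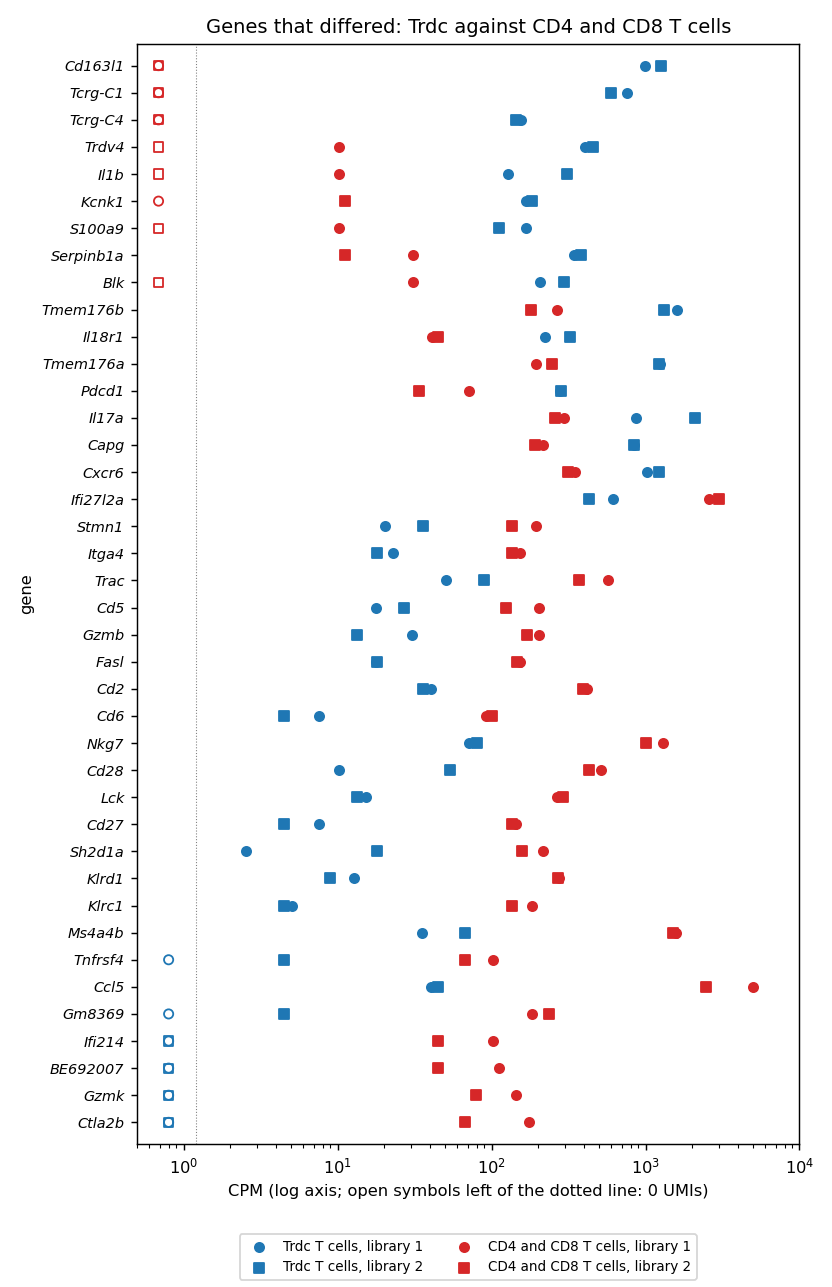
Level of named genes (CPM, log axis) in the summed Trdc T cells and the summed CD4 and CD8 T cells, with 1 point for each of the 2 libraries and open symbols where no UMI was found. *Cd163l1*, *Tcrg-C1* and *Tcrg-C4* have no UMI in CD4 and CD8 T cells, *Il17a* lies at 870 and 2092 against 297 and 259 CPM, and *Ccl5* at 40.7 and 44.9 against 4981 and 2476 CPM.

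Residency and surface genes also differed. *Cxcr6* was at 1018 and 1221 CPM in Trdc T cells against 348 and 315 CPM, a log2 difference of 1.68 ± 0.26 (adjusted p = 0.017), and *Il18r1*, a chain of the interleukin 18 receptor, at 221 and 323 CPM against 40.9 and 45.0 CPM (2.57 ± 0.42, adjusted p = 0.022). These 2 of 11 residency genes tested were higher and none was lower. *Pdcd1*, the inhibitory receptor PD-1, was at 280 and 283 CPM against 71.6 and 33.8 CPM (2.32 ± 0.42, adjusted p = 0.0386). The calls for *Cxcr6*, *Il18r1* and *Pdcd1* were lost with a mitochondrial limit of 10% (adjusted p = 0.0679, 0.112 and 0.0601). Those for *Il18r1* and *Pdcd1* were also lost without doublets (0.0523 and 0.0539) and with at least 2 UMIs (0.0882 and 0.184). *Capg*, an actin-capping protein, was at 847 and 844 CPM against 215 and 191 CPM (1.99 ± 0.28, adjusted p = 0.0113). *Serpinb1a*, a protease inhibitor, was found in 110 of the 173 Trdc T cells and 4 of the 39 others, and *Kcnk1*, a potassium channel, in 76 and 1. *Kcnk1* was common outside T cells, and 32.3% of VSNs held it, and its call was lost with the limit of 10% (0.185), with at least 2 UMIs (0.0817) and by DESeq2 (0.0554).

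Of the cytotoxic list, 6 of 12 genes tested were lower in Trdc T cells and none higher. *Ccl5* was at 40.7 and 44.9 CPM in Trdc T cells and at 4981 and 2476 CPM in CD4 and CD8 T cells, a log2 difference of -6.50 ± 0.40 (adjusted p = 0.000253). *Nkg7*, a protein of cytotoxic granules, was at 71.3 and 80.8 CPM against 1299 and 1002 CPM (-3.98 ± 0.31, adjusted p = 0.000435). *Gzmk*, a granzyme, gave no UMI in Trdc T cells and 14 and 7 in the others, at least 23.1-fold lower. It thus passed the filter on low counts through the CD4 and CD8 T cells alone. *Gzmb*, *Fasl* and *Klrd1* were the other members that were lower. The call for *Gzmk* was lost with the limit of 10% (adjusted p = 0.052) and with at least 2 UMIs (0.0795), that for *Fasl* with the limit of 10% (0.063) and that for *Gzmb* without doublets (0.0539). In the 39 CD4 and CD8 T cells, *Nkg7* was found in 26, *Ccl5* in 26, *Gzmb* in 10 and the pore-forming *Prf1* in 4.

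Of the genes of costimulation and proximal signalling of the receptor, 7 of 23 tested were lower and none higher, and 16 did not pass. *Cd28*, the main costimulatory receptor, was at 10.2 and 53.9 CPM in Trdc T cells against 511 and 428 CPM (-4.09 ± 0.57, adjusted p = 0.00998), and was found in 7 of 173 cells against 27 of 39. *Lck*, the kinase that starts receptor signalling, was at 15.3 and 13.5 CPM against 266 and 293 CPM (-4.26 ± 0.41, adjusted p = 0.00143), and was found in 8 cells against 28. *Cd2*, *Cd5*, *Cd6*, *Cd27* and the adaptor *Sh2d1a* were the others, while *Lat*, an adaptor downstream of the receptor, was found in 130 of the 173 and 37 of the 39 cells and did not pass the test. The calls for *Cd5* (adjusted p = 0.0601) with the limit of 10%, *Cd6* (0.112) without doublets, and both (0.0928 and 0.0795) with at least 2 UMIs were lost. *Trac* was at 50.9 and 89.8 CPM against 573 and 371 CPM (-2.85 ± 0.39, adjusted p = 0.00984, lost with at least 2 UMIs at 0.0795).

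Among the other genes with the largest decreases were *Ctla2b* (none against 17 and 6 UMIs, at least 25.3-fold lower), a protease inhibitor of activated T cells, and *Tnfrsf4* (1 UMI against 16). *Ms4a4b*, a membrane protein of T and natural killer cells, was at 35.6 and 67.3 CPM against 1575 and 1520 CPM. *Ifi27l2a* was at 618 and 431 CPM against 2598 and 3006 CPM, and was the sole member called among 12 interferon-stimulated genes. *BE692007*, *Ifi214*, *Gm8369* and *Klrc1* were also among the largest decreases. *Ctla2b*, *BE692007* and *Ifi214* gave no UMI in Trdc T cells. They thus passed the filter on low counts through the CD4 and CD8 T cells alone and could only be called lower. Without doublets, the calls for *Tnfrsf4* (adjusted p = 0.0762), *BE692007* (0.112) and *Ifi214* (0.114) were lost. With the limit of 10%, the same calls were lost (0.0801, 0.0831 and 0.0523). With at least 2 UMIs, those for *Ctla2b* (0.103), *BE692007* (0.156) and *Ifi214* (0.192) were lost. The stricter filter of edgeR lost those for *Tnfrsf4* (0.0817) and *Ctla2b* (0.0519). *Stmn1*, 1 of 4 genes tested of the cell division list, was called lower, and the call was lost with the limit of 10% (0.142), without doublets (0.0539), with at least 2 UMIs (0.0817) and in thinned cells (0.17). The proliferation marker *Mki67* was found in 6 of the 272 T cells (2.21%) against 1.17% of VSNs.

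When T cells with *Trac* and no *Trdc* (36 in each library) took the place of the CD4 and CD8 T cells, a choice made after the data had been seen, 88 genes passed, 51 of them among the 64. *Cxcr6* (adjusted p = 0.133), *Il18r1* (0.0899) and *Blk* (0.106) were not among the 88.

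Transcripts of other cell types were present in some T cells. Markers of other types, without *Apoe*, *Gnai2*, *Ctss*, *Ccr7* and *Ighm*, reached 10 or more UMIs in 28 T cells (10.3%), with a median of 8426.5 UMIs in these cells and 3021.5 in the others. These 28 cells held 23.5% of all UMIs of T cells, and they were 20 of the 173 Trdc T cells (11.6%) and 3 of the 39 CD4 and CD8 T cells (7.69%). Of 7 macrophage genes not used in the rule, 5 were seen, at 0 to 1066 UMIs per cell and 1619 and 3398 CPM in the libraries, with *Adgre1* and *Mrc1* at 0. Of these, *Apoe* alone gave 1378 and 3258 CPM, and 1 cell held 1064 of its UMIs. Fibroblast and mural genes (9 of 10 seen, *Rgs5* at 0) gave 149 and 2216 CPM, and 1 cell held up to 285 UMIs. Epithelial and gland genes (9 of 10 seen, *Obp1a* at 0) gave 1117 and 324 CPM, and those of VSNs (9 of 9 seen) 600 and 650 CPM at a median of 2 UMIs per cell. Endothelial genes (9 of 10 seen, *Sox17* at 0), neutrophil genes (6 of 10, with *Camp*, *Ngp*, *Retnlg* and *Mmp8* at 0), dendritic cell genes (6 of 10, with *Cd209a*, *Flt3*, *Xcr1* and *Clec9a* at 0) and B cell genes (6 of 9, with *Ms4a1* and *Pax5* among those at 0) each gave between 65.2 and 261 CPM in both libraries. No erythroid gene was seen.

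**Figure D4:**
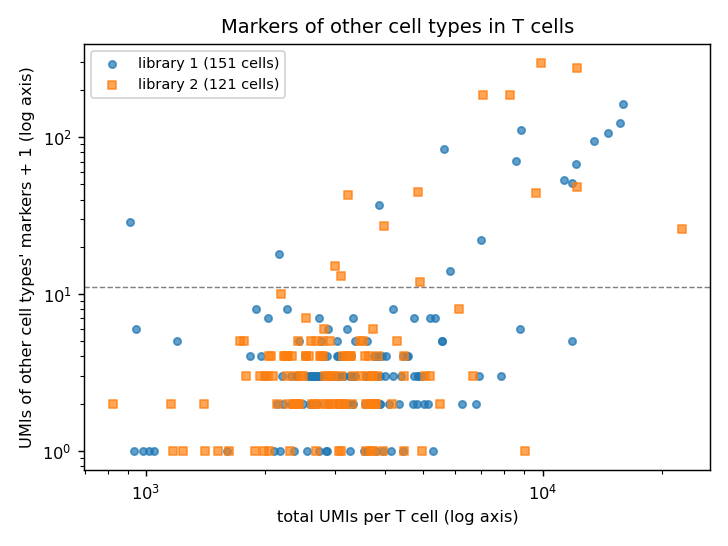
Total UMIs (x axis) and UMIs of markers of other cell types plus 1 (y axis, log axes) in each of the 272 T cells. The 28 cells at or over the dashed line at 10 UMIs have a median of 8426.5 UMIs and the others 3021.5.

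Without these 28 cells, 355 genes passed between Trdc T cells and CD4 and CD8 T cells, 61 of them among the 64. *Il17a*, *Cd163l1*, *Ccl5*, *Cd28* and *Lck* were called in both. *Mt1*, a metallothionein that was higher in Trdc T cells (654 and 530 CPM against 30.7 and 78.8 CPM, log2 difference 3.38 ± 0.44, adjusted p = 0.00669), gave a log2 difference of -0.17 without them, and its call was also lost with the limit of 10% (adjusted p = 0.571), without doublets (0.252) and in thinned cells (0.159). The neutrophil gene *S100a9* (66 and 25 UMIs against 1 and 0) and *Il1b* (50 and 69 UMIs against 1 and 0, in 6 of the 173 cells) were called higher with all cells and had too few UMIs to be tested without them. Both calls were also lost without doublets (0.0647 and 0.0814) and with the limit of 10% (0.112 and 0.104). Of the 64 calls, 62 could be tested without the 28 cells. Of these, 61 passed and *Mt1* reversed. Why *Mt1*, *S100a9* and *Il1b* changed was not tested.

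Whether the cells with *Il17a* differ from the other Trdc T cells was asked after the data had been seen. Of the Trdc T cells, 36 and 36 held *Il17a* and 65 and 36 did not, with median UMIs of 2823.5 and 2992. In edgeR's quasi-likelihood test, 0 of 6146 genes passed (0% of genes tested), 199 had an unadjusted p under 0.05, and with DESeq2 0 passed and 26 had an unadjusted p under 0.05. With the libraries as a block, 16 genes passed. *Blk* gave 31 and 36 UMIs against 50 and 30 (log2 difference 0.29), *Cxcr6* 154 and 140 against 246 and 132 (0.20), and *Pdcd1* 63 and 37 against 47 and 26 (1.00). Of the genes changed by 2 on the log2 scale in simulated counts of this comparison, 42% were recovered, so differences of that size could have been missed. The simulation gave every gene the same fixed spread, not estimated from these data, so the share missed in the real counts is not known.

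T cells were last compared with the lymphocytes most like them. Natural killer cells and innate lymphoid cells lack a T cell receptor. Barcodes with no *Cd3* UMI that held *Ncr1* or at least 2 UMIs of *Klrb1c*, within the same limits, numbered 19 and 18 and had a median of 3649 UMIs against 3103.5 in T cells. Over 8230 genes, 50 were higher in T cells (0.608% of genes tested) and 42 lower (0.510%) by edgeR's quasi-likelihood test, and 248 passed with the libraries as a block, among them each of these 92.

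Of the 20 genes of the gamma-delta and type 17 list, 18 were tested, and 9 were higher in T cells and none lower. For 12 of the 18, no UMI was found in the *Ncr1* or *Klrb1c* cells, so they passed the filter on low counts through the T cells alone. *Il17a* gave 408 and 522 UMIs in T cells and none in the *Ncr1* or *Klrb1c* cells (at least 47.5-fold, adjusted p = 0.000972), and *Cd163l1* was at least 34.8-fold and *Tcrg-C1* at least 23.0-fold higher. *Trdc* was at 1574 and 1270 CPM against 13.6 and 47.1 CPM, a log2 difference of 5.61 ± 0.42 (adjusted p = 0.000572). The choice of cells by *Cd3* UMIs favours higher levels of *Trdc* and *Tcrg-C1* in T cells, so their values are a description. *Actn2*, an actin cross-linking protein, *Ltb4r1*, the receptor of leukotriene B4, *Pxdc1* and *Pdcd1* were likewise found in no *Ncr1* or *Klrb1c* cell (0 of 37 cells, for which a count of 0 allows up to 8.11%). They also passed the filter on low counts through the T cells alone and could only be called higher. The calls for *Pxdc1* (adjusted p = 0.0507) and *Pdcd1* (0.149) were lost with the limit of 10%.

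Of the T cell receptor chains, 5 of 8 tested were higher in T cells and none lower. The groups were split by *Cd3* UMIs, so the choice of cells favours this direction and the values of these chains are a description. For 2 of the 8, no UMI was found in the *Ncr1* or *Klrb1c* cells, so they passed the filter on low counts through the T cells alone. The call for *Tcrg-C2* was lost with the limit of 10% (adjusted p = 0.0934), with at least 2 UMIs (0.0583) and by DESeq2 (0.051) or its size factors (0.0616). *Trac* was at 230 and 247 CPM against 13.6 and 11.8 CPM, a ratio of 18.8 with a counting interval of 5.14 to 156 (adjusted p = 0.0036). *Trbc2* was at 1276 and 1235 CPM against 423 and 200 CPM (log2 difference 2.15 ± 0.33, adjusted p = 0.0154). *Trbc1*, in contrast, was at 403 and 429 CPM against 354 and 518 CPM, and no difference was detected (0.05 ± 0.27, adjusted p = 0.971). *Il7r*, the receptor that maintains memory T cells, was at 630 and 792 CPM against 136 and 47.1 CPM (3.10 ± 0.40, adjusted p = 0.00764). *Cxcr6* was at 847 and 918 CPM against 150 and 118 CPM (2.85 ± 0.28, adjusted p = 0.0016), and *Icos* and *Cd69* were also higher. Of 13 tissue residency genes tested, 3 were higher in T cells and 1 was lower. *Rgs1* was called lower, a call lost with the limit of 10% (adjusted p = 0.061), without doublets (0.0585) and with at least 2 UMIs (0.436). The calls for *Trbc2* (adjusted p = 0.0622) and *Cd69* (0.0736) were lost with the limit of 10%.

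Of the 42 genes lower in T cells, 10 were among the 14 tested of the cytotoxic list and 11 among the 15 tested of the natural killer and innate lymphoid list, and no gene of these lists was higher. The *Ncr1* or *Klrb1c* cells were chosen by natural killer genes, so the choice of cells favours this direction and these counts are a description. For 3 of the 15, no UMI was found in T cells, so they passed the filter on low counts through the other group alone. *Gzma*, granzyme A, gave 1 and 2 UMIs in T cells and 163 and 155 in the *Ncr1* or *Klrb1c* cells, with an adjusted p of 1.69e-05. *Klra4* gave none against 20 and 37 UMIs, at least 124-fold lower, and *Klra8*, *Klra3* and *Klri2* also gave none in T cells, although *Klra* genes are close copies whose UMIs can be assigned to one another. *Klra4*, *Klra8*, *Klra3* and *Klri2* thus could only be called lower. *Fcer1g* was at 137 and 135 CPM in T cells against 2808 and 1932 CPM (log2 difference -3.98 ± 0.27), *Gzmb* at 69.6 and 83.9 CPM against 927 and 1155 CPM (-3.64 ± 0.27), and *Tbx21*, the factor of type 1 immunity, at 9.94 and 16.3 CPM against 109 and 141 CPM (-3.13 ± 0.50, adjusted p = 0.0198, and 0.0583 with at least 2 UMIs of the defining gene). *Ifng* was at 26.5 and 117 CPM against 273 and 342 CPM and did not pass (-2.05 ± 0.56, adjusted p = 0.188, and 5.69e-05 with the block).

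**Figure D5:**
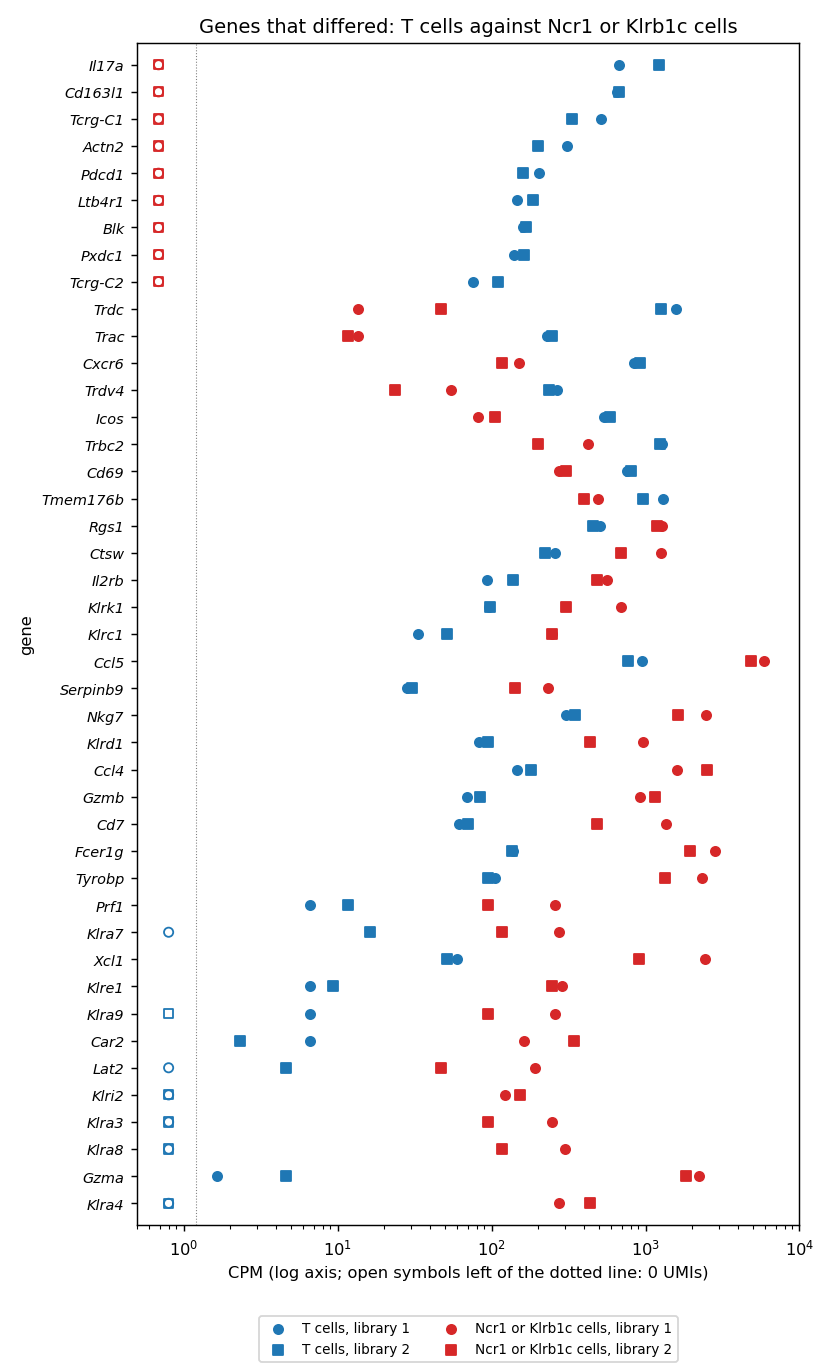
Level of named genes (CPM, log axis) in the summed T cells and the summed *Ncr1* or *Klrb1c* cells without *Cd3*, with 1 point for each of the 2 libraries and open symbols where no UMI was found. *Il17a* and *Cd163l1* have no UMI in the *Ncr1* or *Klrb1c* cells, *Klra4* has none in T cells, and *Trdc* lies at 1574 and 1270 against 13.6 and 47.1 CPM.

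The limits of the rule were examined on genes it did not use. *Trbc2* was found in 236 of the 262 T cells with 3 or more *Cd3* UMIs (90.1%), in 6 of the 10 with exactly 2, and in 6 of 37 barcodes with exactly 1 that met the other limits (16.2%). Another 22 barcodes with at least 2 *Cd3* UMIs were left out by the other limits, 15 by the complement genes, 1 by *Cd79a* and 7 by *Omp*, with 1 barcode left out by more than 1 limit. Between 4.5 and 5% mitochondrial UMIs, *Trdc* was found in 30 of 43 T cells (69.8%), and between 5 and 5.5%, just outside the limit, in 17 of 27 (63.0%).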

How the data were processed

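Single-cell suspensions of whole VNO were profiled as 2 libraries. The authors aligned the reads to mm10 and made UMI counts with Cell Ranger 4, merged both libraries with its aggregation step (its depth setting is not stated in the sources used here) and deposited the raw counts of 32285 genes in 24084 barcodes. Cell Ranger counts reads that map to 1 gene. The number that follows the dash of a barcode was read as its library, as numbered in the labels. The study's filters on cells are not applied in the deposited counts and were applied here (200 to 9000 genes, at most 5% mitochondrial UMIs).

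The cell rule and all gene lists were chosen with earlier results of these data known. UMIs were summed per library and group and tested with edgeR 4.0.16 in R 4.3.3 (TMM, glmQLFit, glmQLFTest) on genes whose sums reached 10 UMIs, p-values were adjusted after Benjamini and Hochberg (Benjamini-Hochberg) and held to 0.05, and a test was run where each group had at least 5 cells in each library. The standard error of a log2 difference was taken from its F statistic. CPM are UMIs per 1000000 UMIs of the group, and a fold against 0 UMIs uses a floor of 3 UMIs over the group. The genes named are those of the lists, the 15 with the highest ratio, and for each test the 8 called genes that changed most in each direction and alike in both libraries. *Mt1* was chosen after its values were seen. Positions are from GENCODE M21 (GRCm38), which matched 32158 gene identifiers. Scrublet (scanpy 1.11.5, expected rate 8%) was run on each library and marked 68 and 117 of the filtered barcodes as doublets (1.19% and 2.39%), 2 of them T cells, and these were kept. For shares, cells were also thinned to 2027 UMIs.

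The 2 groups of a comparison come from the same suspension in each library, so library numbers pair the sums. The correlation of the deviations of paired sums was 0.109 for Trdc against CD4 and CD8 T cells, -0.0251 for T cells against *Ncr1* or *Klrb1c* cells and 0.119 for cells with against without *Il17a*. The test was tried on simulated data, where a log2 change of 3 was found in 68% of 50 changed genes for the first of these comparisons, 46% for the second and 70% for the third. The simulated counts had the same fixed spread for every gene, not estimated from these data. The shares found thus do not measure the power in the real counts. Some genes of the lists and 1 planned comparison are not reported here. Alternatives were DESeq2 1.42.0, its size factors, other filters on genes and cells, the library block and leaving out each library. The block was fitted to the same few sums and leaves less spread from which to estimate error. Its p-values, given beside those of the main test, are a description and do not stand in for that test.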

Additional observations from a re-analysis of the deposited data

Results flagged for a closer look

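Barcodes outside the filter also carried the T cell transcripts. A further 143 barcodes met the T cell rule except that over 5% of their UMIs were mitochondrial, 65 in library 1 and 78 in library 2. Of these, 89 (62.2%) held *Trdc* and 45 held *Il17a*. They lie outside the 272 T cells described above, and 119 of them, with at most 10% mitochondrial UMIs, entered the groups where the limit was set to 10%.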

How the results depend on the processing

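The count of genes called between Trdc T cells and CD4 and CD8 T cells (64) moved to 241 with no filter on low counts, 164 with the library block, 42 with a mitochondrial limit of 10%, 32 with at least 2 UMIs for a positive cell and 355 without cells with 10 or more UMIs of markers of other types, an alternative chosen after the data had been seen. The count for T cells against *Ncr1* or *Klrb1c* cells (92) moved to 351, 248 and 54 under the first 3 of these, 174 in thinned cells and 288 without cells with other markers. The count for *Il17a* among Trdc T cells (0) moved to 46 with no filter, 16 with the block and 3 without cells with other markers. Without the doublets, 2 of them T cells, the first count was 43, and 22 of the 64 calls were lost. DESeq2 called 68, 106 and 0 genes, which held 51 of the 64 and 82 of the 92. *Mt1* reversed to -0.17 without cells with other markers. Leaving out a library leaves no spread to test, so only each library's difference was computed. Its direction was that of the joint test for each of the 64 and 92 genes. The genes were called from these same libraries, so this is no separate check. Without library 1, the remaining difference lay more than the SD of both library values from the joint difference for 39 of the 64 and 54 of the 92. Without library 2, it did so for 36 and 40. The library values were computed with a larger added count than the joint difference, which shrinks them where UMIs are few. These counts therefore do not measure dependence on a library.

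Of the shares of T cells, CD4 moved from 3.31% to 0.735% with at least 2 UMIs, CD8 from 11.4% to 9.93% with at least 2 UMIs, 10.7% in thinned cells and with the limit of 10%, and 11.1% without doublets and with at least 3 *Cd3* UMIs, *Foxp3* from 1.10% to 0.368% with at least 2 UMIs, and *Cxcr6* from 84.6% to 69.1% with at least 2 UMIs and 71.7% in thinned cells. The share of T cells among barcodes moved from 2.57% to 2.09% with the limit of 10%. A share was counted as moved where it changed by at least the SD of the 2 library shares. This SD was 0.221 percentage points for CD8 and 5.22 for *Trdc*, so small changes of CD8 are listed. Every CD8 value listed lay within its counting interval of 7.88 to 15.8%. The *Trdc* share went from 63.6% to 61.4% with at least 2 UMIs and was not counted as moved. The CD4 cells numbered 2 rather than 9 with at least 2 UMIs. The causes were not tested. The depth of a T cell, a median of 3103.5 UMIs, limits every share.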

Other observations

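Genes of the dissociation stress list were abundant in T cells. *Fos* was at 2742 and 2139 CPM in the libraries and was found in 249 of the 272 cells (91.5%), and *Jun* at 2101 and 1515 CPM in 231 (84.9%). Both were also high in all other barcodes, at 3533 and 3393 CPM for *Fos* and 2538 and 2710 CPM for *Jun*. None of the 14 genes of this list was called in any of the 3 tests. Of all genes tested, 0.359% were called higher and 0.560% lower in Trdc T cells than in CD4 and CD8 T cells. Against *Ncr1* or *Klrb1c* cells the shares were 0.608% and 0.510%, and for *Il17a* among Trdc T cells 0%. No call among 14 genes is near these shares and does not set the list apart. Chemokine receptors other than *Cxcr6* were led by *Ccr2*, found in 126 T cells (46.3%) and 95 of the 173 Trdc T cells. *Cxcr3* was found in 55 (20.2%) and *Cxcr4* in 50 (18.4%).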
